A study of Rattus norvegicus with 12 samples.

Results

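A set of 10 genes of retinoic acid synthesis and response were followed in rat cardiac fibroblasts and in cells made from them with the transcription factors Sall4 and Gata4. They were the rows of the gene count table whose gene name is Stra6, Aldh1a1, Aldh1a2, Aldh1a3, Crabp1, Crabp2, Rara, Rarb, Rarg or Cyp26b1. The 10 names gave 11 of the 32545 rows, because Crabp2 stood in 2 rows. Of these, 9 rows, each a different gene, had enough counts to be tested among the 14399 genes tested. Crabp1, with 56 counts over all libraries, and a second Crabp2 row at position 184882969 to 184883505 of chromosome 2 (Rnor_6.0), with 0 counts in every library, were not tested.

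The samples were 12 libraries in 4 groups of 3 biological replicates. GS_diff2 were GS cells kept in CMM medium with EGM2 solution and labelled for cardiomyocyte and endothelial differentiation. GS_diff1 were GS cells kept in CMM medium alone and labelled for cardiomyocyte differentiation. GS were undifferentiated, immortalized cells with viral Sall4 and Gata4, derived from the parental heart fibroblasts, and RCF were those parental fibroblasts, wild type and untreated, in primary culture. All 4 groups carry the cell type label cardiac fibroblast. The labels give no age, sex or strain, no time in medium, and no statement on whether the GS cells are 1 clone. With no other transduced line, the 2 factors, the virus, immortalization and time in culture cannot be told apart as the source of a difference between GS and RCF.

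The total per library was between 16255682 and 23117864 counts, spread over 16044 to 16707 genes. Sall4 averaged 69.6 CPM in GS_diff2, 225 CPM in GS_diff1 and 246 CPM in GS, with 0 counts in RCF, and Gata4 averaged 285, 495 and 595 CPM in GS_diff2, GS_diff1 and GS and 206 CPM in RCF, which fits the labels, although the protocol text names the virus for every sample. CPM are read counts scaled to a common library size. Of 10 fibroblast markers, all had counts in GS_diff1, GS and RCF, and in GS_diff2 only Tcf21 was at 0. Their levels differed, with 4 of the 10 higher and 4 lower in GS against RCF, beside 35% and 36.3% of all tested genes. Tcf21 averaged 0.395 CPM in GS and 18.5 CPM in RCF, and Dcn 1.00 and 32.8 CPM, while Pdgfra averaged 688 and 97.4 CPM. The summed level of 7 endothelial markers was at most 28.6 CPM in any library. That of 8 cardiomyocyte markers was at most 38.0 CPM. The sum of 8 macrophage and leukocyte markers was 32.4 to 34.4 CPM in GS_diff2, 17.0 to 18.3 CPM in GS_diff1, 23.8 to 27.5 CPM in GS and 107 to 112 CPM in RCF. In GS against RCF, 1 of these 8 was higher and 6 were lower, and Lyz2 averaged 0.348 CPM in GS and 55.8 CPM in RCF. The sum of 8 smooth muscle markers was 401 to 407 CPM in GS_diff2, 2527 to 2577 CPM in GS_diff1, 611 to 641 CPM in GS and 799 to 818 CPM in RCF. Their part in the differences between groups was not tested.

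Retinoic acid is made from vitamin A inside the cell. STRA6 takes up retinol from its carrier in blood, retinol is oxidized to retinal by dehydrogenases such as RDH10, and the ALDH1A enzymes oxidize retinal to retinoic acid. CRABP proteins carry retinoic acid in the cytoplasm, the nuclear receptors RARα, RARβ and RARγ bind it and act on DNA with RXR partners, and the CYP26 enzymes break it down. In the developing heart, Aldh1a2 is the main source of retinoic acid and is known for its expression in the epicardium and mesothelium. Cyp26a1 and Rarb are known in mouse and human as genes that retinoic acid itself induces.

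Those induced genes carry in their promoters a repeat that RAR and RXR are known to bind, and it is shown here because both genes differed between the groups. All 10 genes had a RefSeq promoter window (build GRCr8, 250 bases before to 50 bases after the start). Both strands were searched for direct repeats of the receptor core site, which is A or G, then G, then G or T, then TCA, with 1, 2 or 5 bases between the copies, and for repeats of AGGTCA and of GTTCA with 2 or 5 bases between the copies. One of the 10 genes, Rarb, had a match, and so did 1 of the 50 other pathway genes with a window, Cyp26a1. Both had the form with 5 bases between the core sites, which 0.382% of all 33469 windows held. The Rarb repeat lies on the gene's strand, 25 to 41 bases after the RefSeq start, at chr15:11336416-11336432. The Cyp26a1 repeat lies on the opposite strand, 92 to 76 bases before the start, at chr1:244883730-244883746. Each is printed 5′ to 3′ on the strand that holds it, with 4 bases on either side, and capitals mark the repeat.
Rarb: gaagGGTTCACCGAAAGTTCActcg
Cyp26a1: aattAGTTCACCCAAAGTTCAtctt
The repeats were identical at 15 of 17 bases, though the search pattern fixed many of these bases in advance. Counted from 1 at the repeat's 5′ end, with the Rarb base first and the Cyp26a1 base last, the differences were G1A and G9C.

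Stra6 and Aldh1a2, the members with the largest differences between groups, had none of the repeats in their windows. The bases from 250 to 1 before their RefSeq starts are printed on the plus strand (GRCr8), chr8:67444507-67444756 for Stra6 and chr8:80758391-80758640 for Aldh1a2, with no capitals because no base was matched.
Stra6: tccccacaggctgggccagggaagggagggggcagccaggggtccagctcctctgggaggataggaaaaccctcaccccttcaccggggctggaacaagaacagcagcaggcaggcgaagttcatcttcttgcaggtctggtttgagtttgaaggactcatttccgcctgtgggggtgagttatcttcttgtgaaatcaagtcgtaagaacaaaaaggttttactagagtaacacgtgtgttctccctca
Aldh1a2: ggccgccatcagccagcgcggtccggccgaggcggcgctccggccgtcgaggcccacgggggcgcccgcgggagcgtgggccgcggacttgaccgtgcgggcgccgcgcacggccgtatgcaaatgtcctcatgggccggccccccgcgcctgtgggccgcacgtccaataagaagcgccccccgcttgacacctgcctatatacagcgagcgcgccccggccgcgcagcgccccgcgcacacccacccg

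Across the groups, GS cells had far more RNA of Stra6, the uptake receptor, than their parental fibroblasts, and far less of Aldh1a2 and Rarb. In GS against RCF, 7 of the 9 tested genes passed an adjusted p of 0.05 in edgeR's quasi-likelihood test, where 71.3% of all tested genes passed. The 4 higher in GS were Stra6, Aldh1a1, Rara and Rarg, beside 35% of all tested genes, and the 3 lower were Aldh1a2, Aldh1a3 and Rarb, beside 36.3%. The share of members called was near that of all genes, so the size and direction of single genes carry the description that follows. The median log2 fold change of the 9 genes was 0.65 in GS against RCF, beside -0.03 over all tested genes. In bulk RNA, fewer cells of a type and less RNA per cell cannot be told apart.

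**Figure D1:**
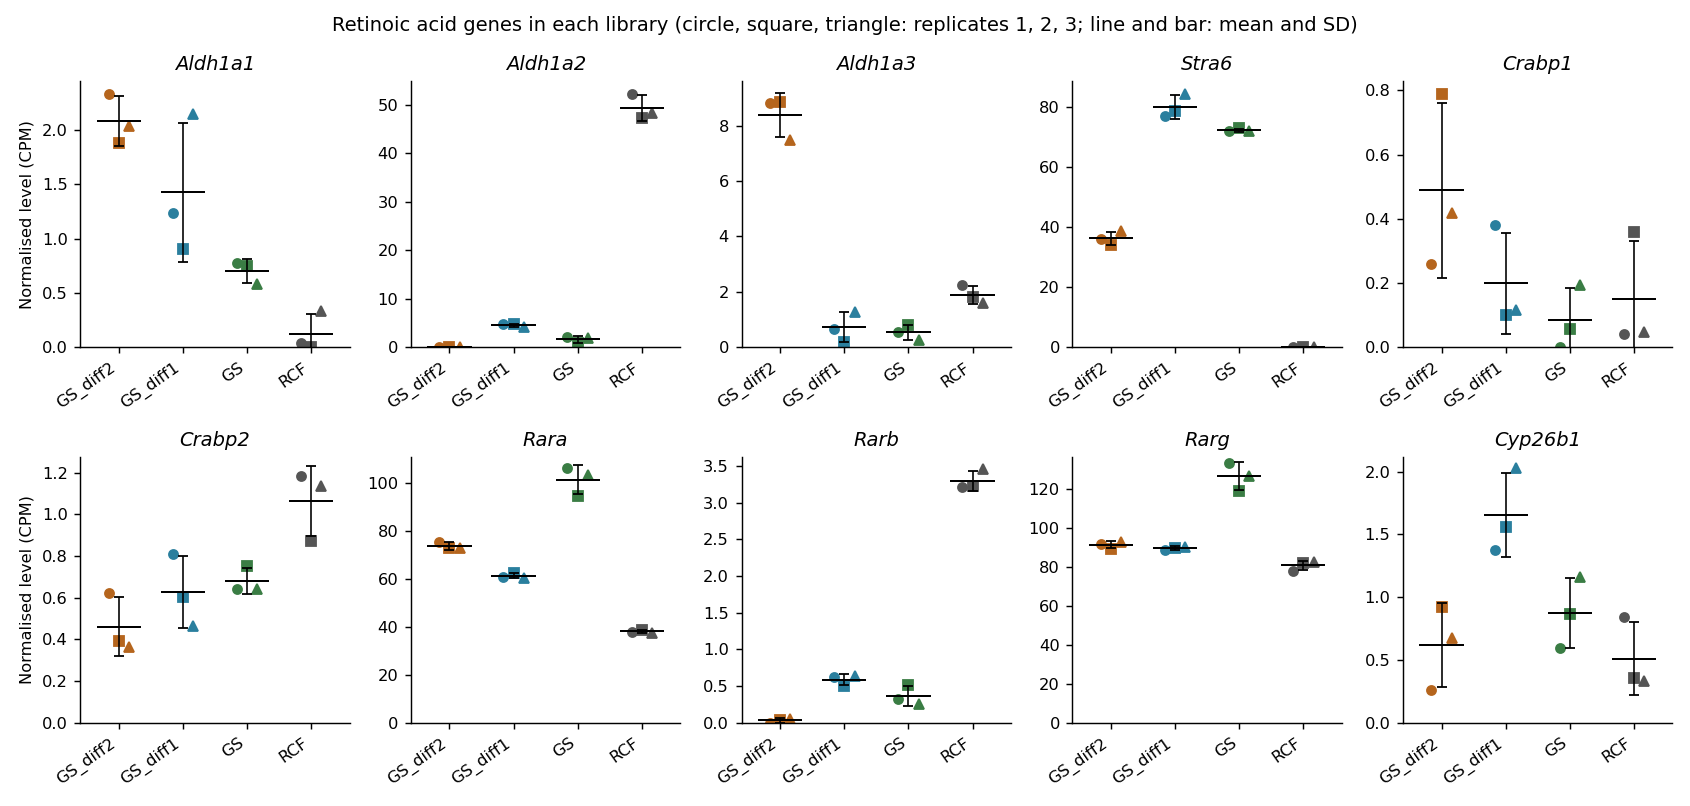
Normalised level (CPM, linear axis from 0) of the 10 genes in each of the 12 libraries, 1 panel per gene with its own scale. Symbols are replicates 1 to 3, lines are group means and bars are SD (n = 3). Stra6 sits between 33.9 and 84.3 CPM in the 9 libraries of GS cells and at most 0.0513 CPM in RCF. Aldh1a2 sits at 0 in GS_diff2 and between 47.3 and 52.3 CPM in RCF.

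Stra6 (chromosome 8, 62925357 to 62944437, Rnor_6.0) encodes the membrane receptor that takes up retinol. It had 695, 774 and 737 counts in the GS_diff2 libraries, 1616, 1556 and 1454 counts in GS_diff1, 1567, 1258 and 1117 counts in GS, and 0, 1 and 1 counts in RCF. Every library of GS cells was far above every RCF library. The level was 36.1 ± 2.30 CPM in GS_diff2, 79.9 ± 3.91 CPM in GS_diff1, 72.2 ± 0.502 CPM in GS and 0.0329 ± 0.0285 CPM in RCF (SD, n = 3 each). With 2 counts in all of RCF, the ratio of scaled counts, GS over RCF, was 2321, with a 95% counting interval of 642 to 19169. The same ratio was 2559 for GS_diff1 and 1158 for GS_diff2.

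Between the media, GS_diff2 had 2.00-fold less Stra6 than GS (adjusted p = 1.37e-14, edgeR) and 2.21-fold less than GS_diff1 (log2 fold change -1.14, SE 0.06, adjusted p = 5.34e-16). No GS_diff2 library reached the level of a library of the other 2 groups. GS_diff1 was 1.11-fold higher than GS, at an adjusted p of 0.0387. That call was lost without GS replicate 1 (adjusted p = 0.0730), without GS replicate 3 (0.0655) and without GS_diff1 replicate 3 (0.187).

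The 3 ALDH1A enzymes, which make retinoic acid from retinal, each had their own pattern. Aldh1a2 (chromosome 8, 77640222 to 77719489, Rnor_6.0) had 0 counts in all 3 GS_diff2 libraries, 99, 94 and 72 counts in GS_diff1, 46, 14 and 30 counts in GS, and 1239, 922 and 1023 counts in RCF. RCF stood far above all the others, and no 2 groups overlapped. Its level was 4.54 ± 0.318 CPM in GS_diff1, 1.62 ± 0.705 CPM in GS and 49.3 ± 2.63 CPM in RCF.

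GS cells had 30.1-fold less Aldh1a2 RNA than RCF (log2 fold change -4.91, SE 0.20, adjusted p = 2.00e-12, edgeR). In GS_diff1 it was 2.77-fold higher than in GS (log2 fold change 1.47, SE 0.22, adjusted p = 2.22e-05) and 10.8-fold lower than in RCF. Set against a floor of 3 counts per library, GS_diff2 was at least 10.9-fold lower than GS, at least 30.7-fold lower than GS_diff1 and at least 334-fold lower than RCF. All 3 of these comparisons passed the test, with adjusted p-values of 5.58e-08, 3.44e-10 and 5.74e-14.

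Genes of the mesothelium and epicardium, where Aldh1a2 is known to be expressed, differed between the same groups. In GS against RCF, 4 of the 11 tested markers of a list of 12 were higher and 7 were lower, beside 35% and 36.3% of all tested genes (median log2 fold change -1.83, against -0.03). Wt1, a transcription factor of the epicardium, averaged 2.02 CPM in GS_diff2, 7.11 CPM in GS_diff1, 7.0 CPM in GS and 37.2 CPM in RCF. Tbx18, another epicardial factor, averaged 14.5, 28.9 and 29.6 CPM in GS_diff2, GS_diff1 and GS and 88.4 CPM in RCF.

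The summed level of the 12 markers ran the other way, at 640 to 657 CPM in GS_diff2, 1532 to 1555 CPM in GS_diff1, 479 to 491 CPM in GS and 159 to 163 CPM in RCF. Krt8, a keratin, and Cdh1, a cadherin, were its largest parts in each group of GS cells. Krt8 averaged 268 CPM in GS_diff2, 1160 CPM in GS_diff1, 201 CPM in GS and 0.987 CPM in RCF. Cdh1 averaged 253, 318 and 211 CPM in GS_diff2, GS_diff1 and GS and 0.181 CPM in RCF. Msln, the mesothelial surface protein mesothelin, averaged 99.2 CPM in GS_diff2 and 2.77 CPM in RCF. Bnc1 was at 0 in all libraries of GS cells, Upk3b in GS_diff2 and Gpm6a in GS_diff1. Muc16 had only 1 count over all libraries, in GS, and was not tested. The part of these cell types in the Aldh1a2 levels was not tested.

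Aldh1a3 (chromosome 1, 127301128 to 127337882, Rnor_6.0) had its highest level in the GS_diff2 cells. Its counts were 170, 202 and 143 in GS_diff2, 14, 4 and 22 in GS_diff1, 12, 14 and 4 in GS, and 53, 35 and 34 in RCF. GS_diff2 stood above all other libraries, while GS_diff1 and GS overlapped and both lay below RCF. The level in GS_diff2, 8.38 ± 0.787 CPM, was 15.2-fold above the 0.539 ± 0.276 CPM of GS (log2 fold change 3.93, SE 0.41, adjusted p = 2.91e-08, edgeR), 11.9-fold above GS_diff1 (log2 fold change 3.57) and 4.43-fold above RCF. Without GS_diff1 replicate 3, the log2 fold change of GS_diff2 against GS_diff1 was 4.24 (adjusted p = 7.39e-10, edgeR). In GS it was 3.43-fold lower than the 1.88 ± 0.323 CPM of RCF (adjusted p = 0.000791). GS_diff1 and GS were not called different (adjusted p = 0.522).

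Aldh1a1 (chromosome 1, 238222521 to 238264330, Rnor_6.0) was low throughout, with 45, 43 and 39 counts in GS_diff2, 26, 18 and 37 in GS_diff1, 17, 13 and 9 in GS, and 1, 0 and 7 in RCF. GS_diff2 did not overlap with GS, nor GS with RCF. It was 5.46-fold higher in GS than in RCF (log2 fold change 2.45, SE 0.64, adjusted p = 0.00118, edgeR) and 2.92-fold higher in GS_diff2 than in GS (adjusted p = 0.00539). Of the 8 RCF counts, 7 came from replicate 3, and without that library, which leaves 1 count in RCF, the fitted log2 fold change of GS against RCF was 4.60 (adjusted p = 2.16e-05), a size that depends on the prior count of the fit. The GS_diff1 level, 1.43 ± 0.641 CPM against 0.704 ± 0.109 CPM in GS, missed the threshold at an adjusted p of 0.0745 and passed it without GS_diff1 replicate 2 (0.0433). Aldh1a7, a near copy of Aldh1a1 in rodents that could share its reads, averaged at most 0.134 CPM in any group and was not tested.

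Set on a scale per gene length, so that the 3 enzymes can be compared, the summed synthase level was 3.42 ± 0.270 CPM per kb in GS_diff2, 2.87 ± 0.314 in GS_diff1, 1.20 ± 0.256 in GS and 22.5 ± 1.24 in RCF (SD, n = 3 each). In GS_diff2, Aldh1a3 held 72.3% of the sum and Aldh1a1 27.7%, with none from Aldh1a2. Aldh1a2 made up 70.9% of it in GS_diff1 and 97.3% in RCF. The gene that led the synthases was thus a different one in GS_diff2 than in RCF, at a sum that was lower in every library.

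**Figure D2:**
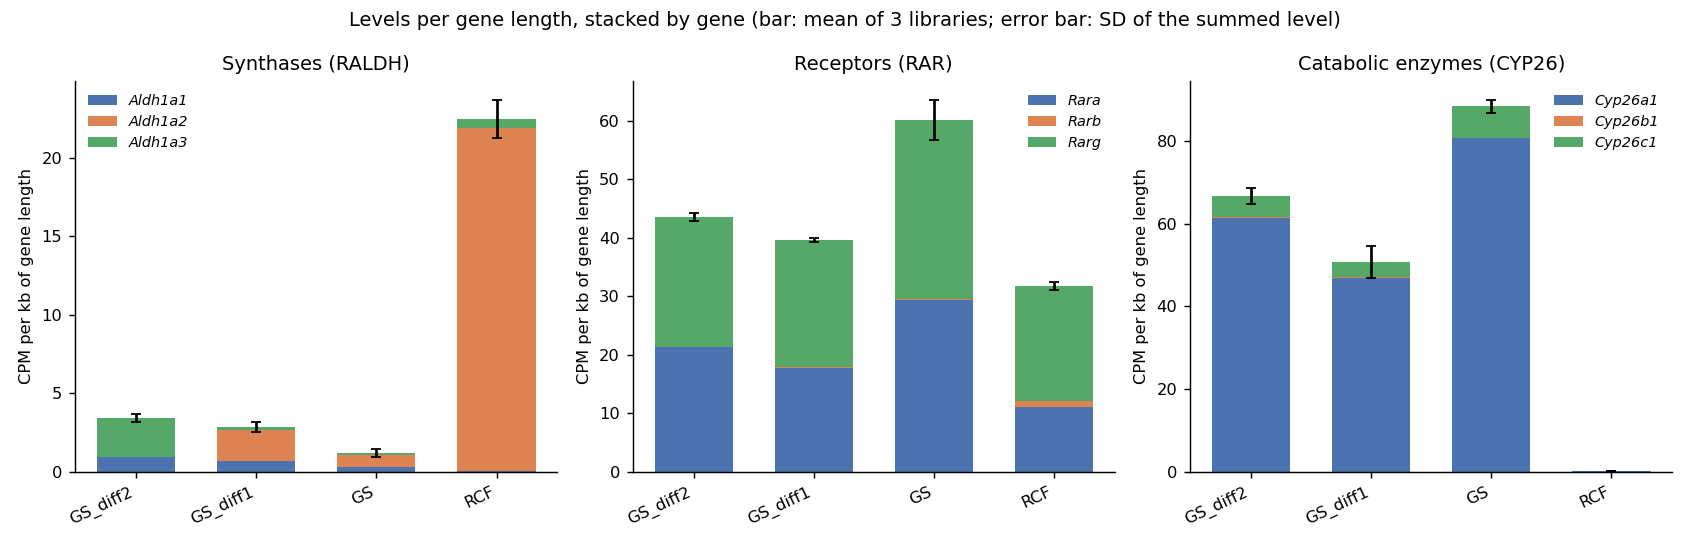
Levels per gene length (CPM per kb, linear axis from 0) stacked by gene for the ALDH1A synthases, the retinoic acid receptors and the CYP26 enzymes in GS_diff2, GS_diff1, GS and RCF. Bars are means of 3 libraries and error bars the SD of the summed level. The synthase sum is at most 3.42 in GS cells and 22.5 in RCF, and the CYP26 sum is 50.8 to 88.5 in GS cells and 0.175 in RCF.

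The CRABP carriers of retinoic acid were low in all groups. Crabp2 (chromosome 2, 187322416 to 187326789, Rnor_6.0), which passes retinoic acid to its receptor, had 12, 9 and 7 counts in GS_diff2, 17, 12 and 8 in GS_diff1, 14, 13 and 10 in GS, and 28, 17 and 24 in RCF. RCF lay above every library of the other groups. Only GS_diff2 against RCF passed the test, at 0.461 ± 0.141 CPM and 1.06 ± 0.167 CPM (log2 fold change -1.21, SE 0.45, adjusted p = 0.0184, edgeR). The call was lost without RCF replicate 1 (adjusted p = 0.0633), GS_diff2 replicate 2 (0.0673) or GS_diff2 replicate 3 (0.0713). Crabp1 (chromosome 8, 59344083 to 59352132), the other carrier, had 5, 18 and 8 counts in GS_diff2, 8, 2 and 2 in GS_diff1, 0, 1 and 3 in GS, and 1, 7 and 1 in RCF. GS_diff2 lay above GS, and every other pair of groups overlapped. The ratio of scaled counts, GS_diff2 over GS, was 6.91, with a 95% counting interval of 2.44 to 26.9, and this gene was below the count filter.

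Of the 3 receptors, Rara and Rarg rose in GS cells and Rarb fell. Rara (chromosome 10, 86860685 to 86884210, Rnor_6.0), the widely expressed RARα, was at 75.6, 73.1 and 72.8 CPM in GS_diff2, 60.9, 62.7 and 60.6 CPM in GS_diff1, 107, 94.9 and 103 CPM in GS, and 37.9, 38.8 and 37.7 CPM in RCF. The 4 groups did not overlap. GS was 2.66-fold above RCF (log2 fold change 1.41, SE 0.05, adjusted p = 1.44e-20, edgeR). GS_diff1 was 1.65-fold below GS (adjusted p = 1.41e-13) and GS_diff2 was 1.38-fold below GS (adjusted p = 1.97e-09), while GS_diff2 was 1.20-fold above GS_diff1 (adjusted p = 4.05e-05).

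Rarg (chromosome 7, 143839980 to 143863186, Rnor_6.0), which encodes RARγ, was at 91.8, 89.4 and 93.0 CPM in GS_diff2, 88.6, 89.7 and 90.5 CPM in GS_diff1, 134, 119 and 127 CPM in GS, and 78.0, 82.0 and 82.5 CPM in RCF. GS lay above all other libraries, RCF below all, and the 2 differentiated groups overlapped. GS was 1.57-fold above RCF (log2 fold change 0.65, SE 0.04, adjusted p = 8.52e-14, edgeR). GS_diff2 was 1.39-fold and GS_diff1 1.41-fold below GS (adjusted p = 1.27e-10 and 4.47e-11), and GS_diff2 against GS_diff1 was not called (log2 fold change 0.03, SE 0.05, adjusted p = 0.607).

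Rarb (chromosome 15, 10120206 to 10262599, Rnor_6.0), which encodes RARβ and holds the repeat printed above, had 0, 1 and 1 counts in GS_diff2, 13, 10 and 11 in GS_diff1, 7, 9 and 4 in GS, and 76, 63 and 73 in RCF. RCF stood above all others and GS_diff2 below all others, while GS_diff1 and GS overlapped. In GS the level was 0.366 ± 0.137 CPM, 8.86-fold below the 3.30 ± 0.135 CPM of RCF (log2 fold change -3.15, SE 0.42, adjusted p = 9.50e-08, edgeR). GS_diff2 was lower again than GS (adjusted p = 0.000230). Since it held 2 counts in all, the ratio of scaled counts was 11.2 for GS over GS_diff2, with a 95% counting interval of 2.73 to 99.0. GS_diff1 was not called different from GS (adjusted p = 0.213) and was 5.58-fold below RCF.

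Per gene length, the summed receptor level was 43.5 ± 0.645 CPM per kb in GS_diff2, 39.6 ± 0.369 in GS_diff1, 60.2 ± 3.43 in GS and 31.7 ± 0.694 in RCF. Rarb was 0.0239% of that sum in GS_diff2, 0.479% in GS_diff1, 0.200% in GS and 3.37% in RCF. Nearly all receptor RNA was thus Rara and Rarg in every group.

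Cyp26b1 (chromosome 4, 116261796 to 116278615, Rnor_6.0), an enzyme that breaks down retinoic acid, had 5, 21 and 13 counts in GS_diff2, 29, 31 and 35 in GS_diff1, 13, 15 and 18 in GS, and 20, 7 and 7 in RCF. GS_diff1 lay above every other library, and the other 3 groups overlapped. It was 3.15-fold higher in GS_diff1 than in RCF (log2 fold change 1.66, SE 0.47, adjusted p = 0.00242, edgeR) and 2.62-fold lower in GS_diff2 than in GS_diff1 (adjusted p = 0.0105). That second call was lost without GS_diff1 replicate 3 (adjusted p = 0.0506) or GS_diff2 replicate 1 (0.0721). GS_diff1 against GS missed the threshold (log2 fold change 0.93, SE 0.46, adjusted p = 0.0767), and GS against RCF did too (adjusted p = 0.193).

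Its relatives Cyp26a1 and Cyp26c1, which belong to the list of other synthesis and breakdown genes, had far higher levels in GS cells. Cyp26a1 (chromosome 1, 256382791 to 256386729, Rnor_6.0), which holds the second repeat printed above, had 2199, 2466 and 2088 counts in GS_diff2, 1617, 1746 and 1506 in GS_diff1, 3194, 2503 and 2230 in GS, and 1, 2 and 2 in RCF. All GS cell libraries stood far above RCF. The level was 110 ± 3.22 CPM in GS_diff2, 84.1 ± 6.23 CPM in GS_diff1, 145 ± 1.5 CPM in GS and 0.0798 ± 0.0328 CPM in RCF.

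The ratio of scaled Cyp26a1 counts, GS over RCF, was 1867, with a 95% counting interval of 800 to 5751 (adjusted p = 2.25e-33, edgeR). Cyp26c1, its neighbour at 256370850 to 256378335 of the same chromosome, averaged 8.07 CPM in GS_diff2, 5.66 CPM in GS_diff1, 11.9 CPM in GS and 0.0282 CPM in RCF, where it had 2 counts. Per gene length, the 3 CYP26 genes summed to 66.7 ± 1.95 CPM per kb in GS_diff2, 50.8 ± 3.78 in GS_diff1, 88.5 ± 1.59 in GS and 0.175 ± 0.0768 in RCF. Cyp26a1 was 91.2% of the sum in GS, and Cyp26b1 was 62.2% of it in RCF.

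Cyp26a1 and Rarb, the pair with a matched repeat, thus differed in opposite directions in GS against RCF. Cyp26a1 was higher and Rarb lower in GS. In GS_diff1 against GS, Cyp26a1 was 1.73-fold lower (adjusted p = 1.02e-14, edgeR) and Rarb was not called. In GS_diff2 against GS, both were lower, Cyp26a1 by 1.31-fold (adjusted p = 2.29e-08). These comparisons share the GS libraries.

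**Figure D3:**
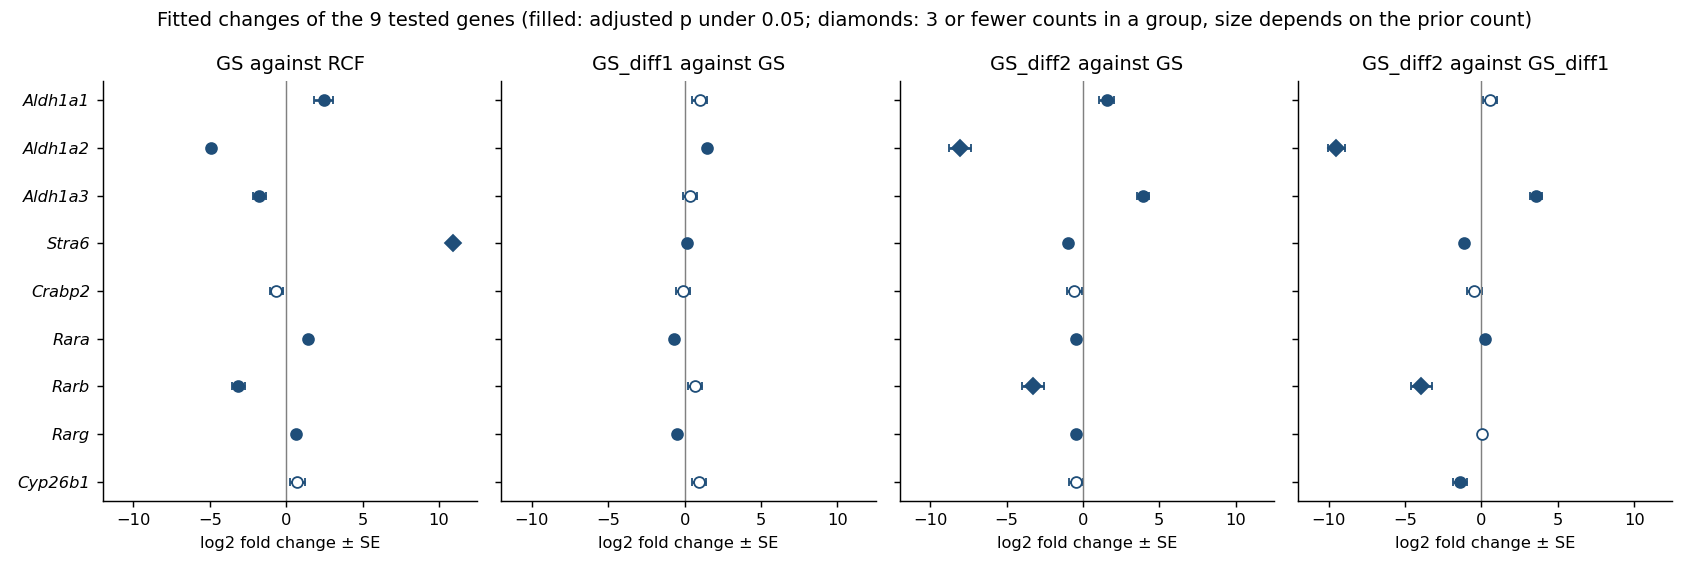
Log2 fold change with its SE (edgeR) of the 9 tested genes in the 4 main comparisons; filled symbols passed an adjusted p of 0.05. Diamonds mark a group with 3 or fewer counts in all, where the size depends on the prior count of the fit. Positive values are higher in the first-named group. Aldh1a2 lies below 0 in GS against RCF and in both GS_diff2 panels and above 0 in GS_diff1 against GS.

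In GS_diff1 against GS, 4 of the 9 passed, where 64.3% of all tested genes passed. Of these, 2 were higher, Aldh1a2 and Stra6, beside 32% of all genes, and 2 were lower, Rara and Rarg, beside 32.3%. In GS_diff2 against GS, 7 passed, beside 67% of all genes, with 2 higher, Aldh1a1 and Aldh1a3 (33.3% of all genes), and 5 lower, Aldh1a2, Rara, Rarb, Rarg and Stra6 (33.7%). In GS_diff2 against GS_diff1, 6 passed beside 63.7%, with 2 higher, Aldh1a3 and Rara (32.1%), and 4 lower, Aldh1a2, Rarb, Cyp26b1 and Stra6 (31.5%). Against RCF, 8 passed for GS_diff1 (75.4% of all genes) and 8 for GS_diff2 (72.5%). Aldh1a2 was higher than GS in CMM medium and lower in CMM medium with EGM2, and its difference between the 2 media was tested directly above. Median log2 fold changes of the 9 genes were 0.36, -0.47 and -0.45 in GS_diff1 against GS, GS_diff2 against GS and GS_diff2 against GS_diff1, where those of all tested genes lay within 0.004 of 0.

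Ranked by level per gene length, Rarg, Rara and Stra6 were the 3 highest genes in GS_diff2, GS_diff1 and GS, while in RCF they were Aldh1a2, Rarg and Rara. In GS_diff2, Rarg at 22.1 and Rara at 21.4 CPM per kb overlapped, followed by Stra6 at 13.2 and Aldh1a3 at 2.47. In GS_diff1, Stra6 led at 29.2 CPM per kb, then Rarg at 21.7, Rara at 17.8 and Aldh1a2 at 2.01, with no overlap between neighbours. In GS, Rarg at 30.6 and Rara at 29.4 CPM per kb overlapped, and Stra6 followed at 26.4. In RCF, Aldh1a2 at 21.9, Rarg at 19.6 and Rara at 11.04 CPM per kb did not overlap, and Stra6 was last at 0.0120. Aldh1a1, Crabp1, Crabp2, Rarb and Cyp26b1 were at or under 1.33 CPM per kb in every group.

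Upstream of the synthases, the enzymes that turn retinol into retinal and back include Rdh10 and Dhrs3, which differed in opposite directions in GS against RCF. Of 11 tested genes of retinol and retinal interconversion, out of 16 listed, 1 was higher and 7 were lower in GS against RCF, beside 35% and 36.3% of all tested genes (median log2 fold change -0.84, against -0.03 over all genes tested). Rdh10, the main retinol dehydrogenase of the embryo, was the higher one, at 114 ± 3.17 CPM in GS and 10.3 ± 2.04 CPM in RCF (log2 fold change 3.46, SE 0.08, adjusted p = 1.15e-23, edgeR). Dhrs3, which reduces retinal to retinol and is known in mouse as a gene induced by retinoic acid, was 12.3-fold lower, at 9.85 ± 1.07 CPM in GS and 121 ± 6.11 CPM in RCF (adjusted p = 1.96e-26). Adh7, an alcohol dehydrogenase that accepts retinol, was 5.39-fold lower in GS.

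The media moved this list in both directions. In GS_diff1 against GS, 2 were higher and 5 lower (32% and 32.3% of all tested genes), and in GS_diff2 against GS, 3 were higher and 5 lower (33.3% and 33.7%). Rdh10 was 1.75-fold lower in GS_diff1 and 2.24-fold lower in GS_diff2 than in GS. Dhrs9, a retinol dehydrogenase, was at 14.6 CPM in GS_diff2, 0.622 CPM in GS_diff1, 2.00 CPM in GS and 6.63 CPM in RCF. GS_diff2 was 23.3-fold above GS_diff1 (adjusted p = 7.49e-16, edgeR).

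**Figure D4:**
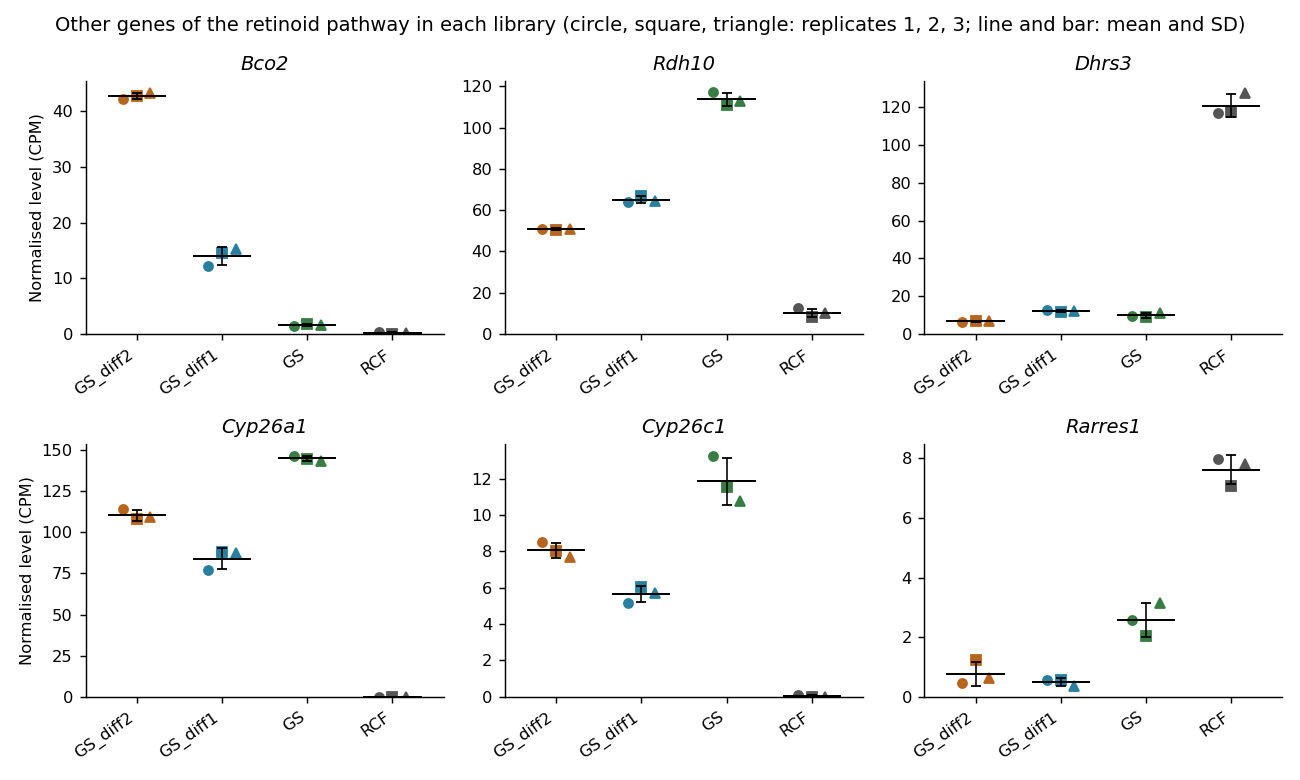
Normalised level (CPM, linear axis from 0) of 6 other genes of the retinoid pathway in each of the 12 libraries, with replicate symbols, group means and SD (n = 3). Rdh10, Cyp26a1 and Cyp26c1 are higher in every GS cell library than in RCF, Dhrs3 and Rarres1 are lower in every one, and Bco2 is highest in GS_diff2.

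Genes that take up, carry and store vitamin A also changed. Of 5 tested out of 10 listed, 3 were higher in GS than in RCF, beside 35% of all tested genes (median log2 fold change 1.66, against -0.03 over all genes tested). Rbp4, the blood carrier that STRA6 recognises, averaged 1.78 CPM in GS and 0.560 CPM in RCF (adjusted p = 0.00539). In GS_diff1 it had 0, 5 and 0 counts, all from replicate 2. That mean of 0.0840 CPM was lower than in GS (adjusted p = 2.74e-06, edgeR).

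Bco2, an enzyme that cleaves carotenoids, averaged 42.8 ± 0.491 CPM in GS_diff2, 14.0 ± 1.61 CPM in GS_diff1, 1.61 ± 0.185 CPM in GS and 0.252 ± 0.189 CPM in RCF. The groups did not overlap. GS_diff2 was 26.7-fold and GS_diff1 8.72-fold above GS (adjusted p = 1.17e-20 and 4.48e-16, edgeR). Lrat, which esterifies retinol for storage, was 3.45-fold higher in GS_diff1 than in GS, at 1.34 CPM and 0.380 CPM (adjusted p = 0.00412).

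Known target genes of retinoic acid did not share 1 direction. Of 19 tested out of 30 listed, 7 were higher and 10 lower in GS against RCF, beside 35% and 36.3% of all tested genes (median log2 fold change -0.55, against -0.03). In GS_diff1 against GS, 3 were higher and 10 lower, beside 32% and 32.3% (median -0.25, where that of all genes was within 0.004 of 0). In GS_diff2 against GS, 1 was higher and 10 lower, beside 33.3% and 33.7% (median -0.32, likewise). The list also holds Cyp26a1 and Dhrs3, described above. Hoxb2, a homeobox gene, had 0 counts in GS and 85 in RCF, at least 7.97-fold lower in GS (adjusted p = 2.62e-06, edgeR). Egr1, an immediate early gene, was 6.41-fold lower in GS_diff1 and 5.31-fold lower in GS_diff2 than in GS, and Rarres2 was 4.61-fold and 4.90-fold lower.

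Cyp1b1, a cytochrome that can also oxidize retinol, was at 47.2 CPM in GS_diff2, 130 CPM in GS_diff1, 1058 CPM in GS and 1004 CPM in RCF. It was 22.4-fold lower in GS_diff2 and 8.11-fold lower in GS_diff1 than in GS (adjusted p = 3.37e-37 and 1.42e-33, edgeR). Among the partner receptors and carriers, with 4 tested of 5, all called differences of the named genes in the 4 main comparisons were under 2-fold. Rxra, the partner of the RARs, was 1.24-fold higher in GS than in RCF (adjusted p = 0.000151), and Fabp5, which carries retinoic acid to another receptor, was 1.63-fold lower (adjusted p = 3.63e-13).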

How the data were processed

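Total RNA of the 12 samples was isolated (RNeasy Mini) and amplified into libraries (Ovation RNA-seq System v2), both kits named in the labels' protocols. The authors deposited 1 table of raw, whole-number read counts per gene. The submitters' processing notes name Bowtie 0.12.2 and the builds Rnor_6.0 and mm8, but not their roles. How reads were counted, against which annotation and whether by strand is not given in the sources used, so reads shared with near-identical or antisense genes cannot be separated. No other row of the table overlaps the 10 genes in position.

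Counts were scaled with TMM factors (0.956 to 1.03) and fitted in edgeR 4.0.16 (R 4.3.3, limma 3.58.1), with a term per group over all 12 libraries. Genes passing filterByExpr were tested (14399 of 32545) with two-sided quasi-likelihood tests, and p-values were adjusted over all of them by the Benjamini-Hochberg method (threshold 0.05). SE is the log2 fold change divided by the square root of F. CPM use TMM-scaled library sizes, and CPM per kb divide by the authors' gene length. Intervals and floors (3 counts per library) cover counting error only. The design text states biological replicates but no separate cultures, so p-values measure the spread between these libraries. Within groups, all 12 library pairs differed beyond sampling noise (chi-square per degree of freedom 4.44 to 7.57). The fit was tested on simulated counts.

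The 10 genes, the pathway and marker lists and the tests were chosen with earlier results of these data known. Named from each pathway list were up to 3 called genes per main comparison with the largest change and a mean of 1 CPM or more in one group. Adh1, Adh5, Akr1b10, Hoxa4 and Pecam1 were among the listed symbols that matched no row. Some genes that this rule takes are not reported here. Promoter windows came from a RefSeq table of build GRCr8, used for sequences only. DESeq2 1.42.0, limma-voom, other scaling, other filters, the replicate number as a block, fits on only 2 groups and leaving out each library were tried as alternatives.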

Additional observations from a re-analysis of the deposited data

How the results depend on the processing

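Of 54 fold changes, 9 genes in 6 comparisons, 46 kept their direction and their side of the threshold in every alternative run, and 8 did not. No count of called genes moved by over 1.5 times: the number of the 9 genes called stayed at 7 in GS against RCF and ranged from 3 to 6 in GS_diff1 against GS, 6 to 8 in GS_diff2 against GS and 5 to 6 in GS_diff2 against GS_diff1. The call of Stra6 in GS_diff1 against GS, that of Cyp26b1 in GS_diff2 against GS_diff1 and that of Crabp2 in GS_diff2 against RCF were lost without the libraries named in the report. Aldh1a1 and Cyp26b1 in GS_diff1 against GS were called in a fit on only those 2 groups (adjusted p = 0.0399 and 0.0333), and Cyp26b1 also by limma-voom (0.0394). Among called fold changes in the main comparisons, leaving out 1 library moved Aldh1a1 in GS against RCF and Aldh1a3 in GS_diff2 against GS_diff1 by over 1.5 times, as given in the report. The sign turned for 3 fold changes that were never called, and the cause was not tested. Leaving out 1 library, Aldh1a3 in GS_diff1 against GS ranged from -0.31 to 0.81, Crabp2 in GS_diff1 against GS from -0.34 to 0.060, and Cyp26b1 in GS_diff2 against RCF from -0.14 to 0.85. With no filter on low counts, Crabp1 was called in GS_diff2 against GS (log2 fold change 2.60, adjusted p = 0.0205). Scaling by library totals moved the median of all genes by at most 0.0994. With the replicate number as a block (replicate block), 10166 genes were called in GS against RCF, 9135 in GS_diff1 against GS, 9538 in GS_diff2 against GS and 9054 in GS_diff2 against GS_diff1, and 7, 4, 7 and 6 of the 9 genes; it changed no other count by over 1.5 times. The numbers do not pair the libraries: same-numbered libraries correlated at -0.0450 to 0.0759 in their deviations from the group means (18 pairs, 0 over 0.1), and 6 of 12 libraries correlated best with their own number. At this depth the low counts of Aldh1a1, Crabp1, Crabp2, Rarb and Cyp26b1 leave wide errors.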

Other observations

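The coregulators through which retinoic acid receptors act, 10 tested of 10 listed, moved in both directions in GS against RCF, with 6 higher and 3 lower, beside 35% and 36.3% of all tested genes (median log2 fold change 0.25, against -0.03 over all genes tested). Tbl1xr1, a subunit of the corepressor complex, was 2.53-fold higher, at 206 ± 1.69 CPM in GS and 81.6 ± 3.31 CPM in RCF (adjusted p = 2.67e-23, edgeR). Crebbp, an acetyltransferase, was 1.54-fold higher, and Nrip1, a corepressor, was 1.80-fold lower. In GS_diff1 against GS, 0 were higher and 5 were lower, beside 32% and 32.3% of all tested genes. In GS_diff2 against GS, 1 was higher and 8 were lower, beside 33.3% and 33.7% (median log2 fold change -0.53). Ncoa1, a coactivator of nuclear receptors, averaged 21.6 CPM in GS_diff2, 21.7 CPM in GS_diff1 and 60.5 CPM in GS, and was 2.80-fold lower in GS_diff2 and 2.79-fold lower in GS_diff1 than in GS (adjusted p = 2.59e-16 and 3.81e-16).

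For the 5 genes whose group means spanned at least 2 log2 units, the genes most alike over the 12 libraries were listed by Pearson's r of log2 CPM, among 12892 genes with a mean of at least 1 CPM. The 12 libraries fall into 4 groups, so r mainly describes the relative spacing of the group levels, not the size of the changes. Stra6 was most like Sema3g, a semaphorin (r = 0.9995), Thbs2, a thrombospondin, and Hsd17b2, a steroid dehydrogenase. Hsd17b2 averaged 14.3 CPM in GS_diff2, 32.5 CPM in GS_diff1 and 26.9 CPM in GS, with 0 in RCF. Aldh1a2 was most like Sdc2 (r = 0.993), Ninj1 and Nucb2, whose levels in GS_diff2 were 178, 72.1 and 224 CPM, against 354, 144 and 420 CPM in RCF. Among the genes most like Rarb were Luzp1 (r = 0.991) and Slc2a13. Aldh1a3 was most like B4galt6 (r = 0.977), Pomt1 and Cflar, and Aldh1a1 like Racgap1 (r = 0.977), Tiam1 and Cdc45.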
